A study of Mus musculus with 25 samples.

Results

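A total of 9735 chromatin regions of sorted mouse skin cells carried a peak in both the wound and tumour lists of an ATAC-seq experiment. They had none in the lists of the 2 homeostatic stem cell populations. ATAC-seq marks DNA that is open to the transposase Tn5, and a peak is a stretch where sequenced fragments pile up above the local background. The regions were found by merging all peaks of the 4 lists (chromosomes 1 to 19 and X) that overlapped by 1 bp or more. Merging gave 98107 union regions, of which the shared new regions made up 9.92%. A further 12573 regions were new in the wound list only, 15423 were new in the tumour list only and 15150 were in all 4 lists. The regions were selected on the peak calls themselves, so their heights, folds and q-values below are a description with no test. Each population had 1 pooled list and no replicates.

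The chromatin came from female CD1/B6 mixed mice. Wound cells (integrin A6-positive, Sca1-positive) were sorted from full- and partial-thickness skin wounds, a sort for which the labels name no lineage reporter. Tumor cells (integrin A6-high, B1-high, GFP-positive) were stem cells of squamous cell carcinomas (SCC) that were induced by oncogenic HRas and grafted. Hair follicle stem cells (HFSC, integrin A6-high, CD34-positive, Sca1-negative) and epidermal stem cells (EpdSC, integrin A6-high, CD34-negative, Sca1-positive) came from unwounded back skin at postnatal day 50. RNA was measured in separate libraries of female B6 mice, with wound biopsies and skin at postnatal day 60, so the rule that gives the regions did not use it. Wound biopsies gave lineage-negative integrin A6-high cells, split by a YFP reporter that Sox9CreER switches on in cells of the follicle lineage: YFP-positive cells are the wounded HFSC lineage, and YFP-negative cells are the wounded EpdSC, a gate that keeps any integrin A6-high cell in which Cre did not act. They were compared with HFSC and EpdSC of unwounded skin, with 2 libraries per group. Integrin A6-high GFP-positive cells of a grafted HRas tumour and of a grafted HRas TbrKO tumour (1 library each) were compared with the mean of HFSC and EpdSC libraries labelled Tbr (1 each). HRas is the oncogene that all tumour cells of this contrast carry. The tumour group therefore mixes 2 genotypes. The spread in this comparison comes only from pairs of HRas and HRas TbrKO libraries, and the single Tbr libraries are assumed to vary alike.

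Most DNA that opens and closes between states of a cell lies away from promoters, in enhancers, where transcription factors displace nucleosomes. In keratinocytes, factors of the AP-1 family (Fos and Jun dimers), ETS, RUNX, TEAD and STAT families are known to act at enhancers during wound repair and in carcinoma, while homeostatic stem cells use lineage factors of follicle or epidermis. A cell in a wound edge migrates, remodels matrix and signals to immune cells, and a squamous carcinoma uses many of the same genes.

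Reference DNA was at hand for promoters only, 300 bases from 250 before to 50 after a gene's start (RefSeq, build GRCm38.p6, which is mm10). Shown here are the windows of the 6 coding genes with the strongest shared new regions at a promoter (by the lower of the wound and tumour folds, both summits inside the window), together with S100a8, which was chosen after its values were seen because it has no AP-1 letters. Capitals mark each match to the AP-1 letters TGANTCA, which read alike on both strands. The windows lie at chr6:128662135-128662434 (plus strand, Clec2h), chr16:38458683-38458982 (plus, Cd80), chr9:7387977-7388276 (minus, Mmp1b), chr2:24152922-24153221 (plus, Il1f8), chr1:173880138-173880437 (minus, Mndal), chr6:131247313-131247612 (minus, Klra2) and chr3:90668821-90669120 (plus, S100a8), and each is written 5′ to 3′ along its gene.
Clec2h: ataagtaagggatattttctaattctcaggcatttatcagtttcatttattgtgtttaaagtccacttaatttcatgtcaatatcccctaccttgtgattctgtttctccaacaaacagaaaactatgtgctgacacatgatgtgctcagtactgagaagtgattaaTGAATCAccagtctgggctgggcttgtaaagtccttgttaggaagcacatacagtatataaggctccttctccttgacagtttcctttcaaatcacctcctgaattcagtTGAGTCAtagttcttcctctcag
Cd80: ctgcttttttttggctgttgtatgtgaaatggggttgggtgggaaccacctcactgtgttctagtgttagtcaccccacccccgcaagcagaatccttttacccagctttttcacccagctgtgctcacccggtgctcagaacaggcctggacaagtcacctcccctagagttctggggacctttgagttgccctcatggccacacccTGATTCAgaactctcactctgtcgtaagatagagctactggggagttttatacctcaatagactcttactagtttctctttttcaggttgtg
Mmp1b: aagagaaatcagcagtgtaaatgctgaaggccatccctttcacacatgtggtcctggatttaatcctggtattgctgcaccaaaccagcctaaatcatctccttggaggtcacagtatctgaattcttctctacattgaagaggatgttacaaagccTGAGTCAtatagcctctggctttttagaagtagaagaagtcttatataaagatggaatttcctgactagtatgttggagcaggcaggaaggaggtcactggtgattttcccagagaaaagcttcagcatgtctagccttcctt
Il1f8: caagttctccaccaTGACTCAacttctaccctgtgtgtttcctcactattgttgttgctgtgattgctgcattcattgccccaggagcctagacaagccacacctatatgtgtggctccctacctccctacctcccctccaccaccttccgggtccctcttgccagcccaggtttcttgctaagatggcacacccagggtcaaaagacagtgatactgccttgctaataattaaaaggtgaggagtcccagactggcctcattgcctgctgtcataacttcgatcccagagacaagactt
Mndal: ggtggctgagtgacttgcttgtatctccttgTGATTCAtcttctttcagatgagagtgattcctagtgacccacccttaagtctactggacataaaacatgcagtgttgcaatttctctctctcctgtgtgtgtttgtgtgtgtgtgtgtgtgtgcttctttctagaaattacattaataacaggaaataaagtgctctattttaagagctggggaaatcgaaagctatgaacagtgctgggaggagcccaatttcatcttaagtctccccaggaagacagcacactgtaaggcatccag
Klra2: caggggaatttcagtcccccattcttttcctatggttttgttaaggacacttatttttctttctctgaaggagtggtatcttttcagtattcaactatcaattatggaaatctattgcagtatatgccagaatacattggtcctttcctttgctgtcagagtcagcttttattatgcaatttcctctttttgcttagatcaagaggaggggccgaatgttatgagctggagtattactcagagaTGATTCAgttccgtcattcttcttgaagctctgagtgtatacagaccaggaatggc
S100a8: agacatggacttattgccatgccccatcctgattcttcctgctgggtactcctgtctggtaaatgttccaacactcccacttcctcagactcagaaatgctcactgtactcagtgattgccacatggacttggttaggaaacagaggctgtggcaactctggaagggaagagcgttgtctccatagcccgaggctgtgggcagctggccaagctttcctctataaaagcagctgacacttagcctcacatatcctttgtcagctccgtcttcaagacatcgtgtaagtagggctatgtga

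The AP-1 match of Mmp1b, a gene of the interstitial collagenase family, was centred 90 bases before the start. The wound summit there stood at position −8 and the tumour summit at −23 from the start. Clec2h, a C-type lectin, held 2 matches, centred 80 bases before and 30 bases after the start, on either side of a wound summit at position −27 and a tumour summit at −28. In Klra2, a lectin-like receptor of the Ly49 family, the match was centred 3 bases before the start, between the wound summit at position −48 and the tumour summit at position 33. In Cd80, a ligand that costimulates T cells, the match stood 39 bases before the start and the wound summit at position −129. The matches of Il1f8, an interleukin of the IL-36 group, and of Mndal, a DNA sensor of the interferon-inducible Ifi200 family, were centred 233 and 216 bases before the start. Folds over the local background, as the authors' peak caller gave them, ran from 10.3 (Klra2) to 15.5 (Cd80) in Wound and from 11.4 (Cd80 and Il1f8) to 25.8 (Mndal) in Tumor for these 6, and were 7.13 in Wound and 6.26 in Tumor for S100a8.

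Peaks of the shared new regions were as strong as typical peaks of their lists. Their median fold enrichment was 6.73 in Wound (range 2.00 to 18.6) and 6.29 in Tumor (1.73 to 25.8), beside medians of 6.70 and 5.91 over all Wound and all Tumor peaks. The median pileup was 22 fragments in Wound and 33 in Tumor, or 1.97 and 1.12 CPM when scaled to the 11140895 Wound and 29579794 Tumor fragments. The median region was 560 bp wide, and 98.5% of the regions had exactly 1 peak from each list. They took up 17.2% of the 56854 Wound peaks and 18.2% of the 54181 Tumor peaks. The summits of both peaks lay within 50 bp of each other in 56.9% of the regions. Across the 9735 regions, log2 folds in Wound and Tumor had a Pearson r of 0.452 and a Spearman rho of 0.439, given as a description, since peaks in open or easily mapped DNA are high in any library. The fold was higher in Wound in 54.8% of them.

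The share found in both lists differed by peak strength, given here as a description. Of the 22308 regions new in Wound, 43.6% were also in Tumor (95% Wilson interval 43.0 to 44.3%), and of the 25158 new in Tumor, 38.7% were also in Wound (38.1 to 39.3%). Among new Wound regions the shared part was 24.1% in the quartile with the lowest folds, 37.2% and 48.4% in the middle quartiles and 64.9% in the highest. Among new Tumor regions it was 21.0%, 34.4%, 43.7% and 55.6%. In these lists the share was higher in each quartile of higher fold, and both the share and the fold come from the peak calls that gave the regions. Regions with a homeostatic peak were shared more often still: 72.6% of the Wound regions with an HFSC or EpdSC peak also had a Tumor peak, and 88.5% of such Tumor regions had a Wound peak. The intervals cover counting error only, and reads without molecular identifiers are not independent molecules.

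**Figure D1:**
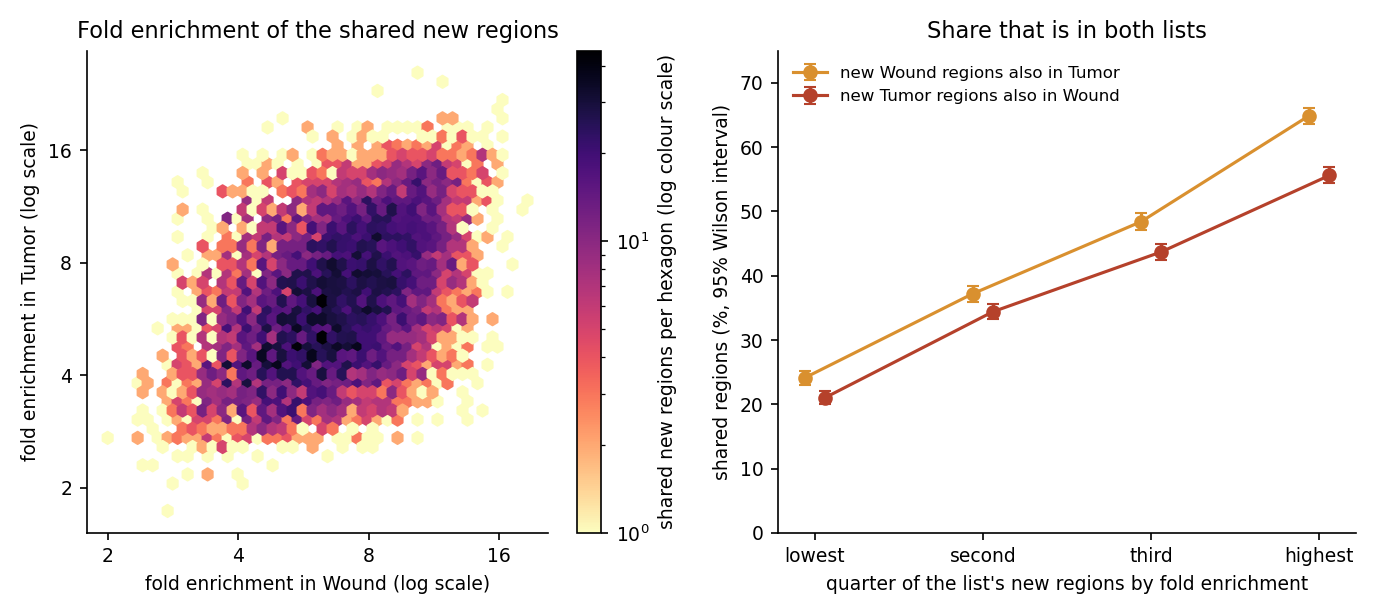
Left: fold enrichment of the 9735 shared new regions in Wound (x axis) and Tumor (y axis), both on log scales, as hexagons coloured by the number of regions. Right: percentage of the new Wound regions also found in Tumor (orange) and of the new Tumor regions also found in Wound (red), by quartile of fold enrichment, with 95% Wilson intervals. The share climbs from 24.1% to 64.9% in Wound and from 21.0% to 55.6% in Tumor between the weakest and the strongest quartile.

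The absence of a homeostatic peak depends on the depth of the HFSC and EpdSC lists, which held 26825550 and 13963471 fragments and 55421 and 25739 peaks. The lowest called peak had 0.573 CPM in EpdSC and 0.373 in HFSC. In 8864 of the shared new regions (91.1%) both the Wound and the Tumor pileup in CPM exceeded the 0.573 of EpdSC, and in 4283 (44.0%) both exceeded 2 times that level. The nearest HFSC or EpdSC peak was a median of 9496 bp away, and under 500 bp in 226 of the regions (2.32%). Just inside the rule were regions with a Wound pileup of 6, a fold of 2.93 and a −log10 q of 1.33, near Colec12, Fads2 and Adamts12. Just outside were regions near Opcml, Tbc1d14 and Plch1 that had Wound and Tumor peaks and an HFSC peak at −log10 q 1.32 and fold 2.56. By position, the closest homeostatic peaks were 4 bp from the shared new regions in Bcar1 and Mki67 and 13 bp from that in Lig1.

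The shared new regions lay far from promoters. Only 2.51% were centred within 1 kb of a start site (244 regions, 95% Wilson interval 2.21 to 2.84%), beside 3.70% of regions new in Wound only, 2.92% of those new in Tumor only, 50.7% of those in all 4 lists and 26.4% of the 7673 that HFSC kept in Wound and Tumor. Their median distance to a start site was 31.1 kb, against 27.4 kb for new in Wound only, 45.5 kb for new in Tumor only and 0.847 kb for regions in all 4 lists. Inside a gene lay 50.5% of them. Start sites came from RefSeq for 17274 of 21631 coding genes, and the ends of the gene stood in for the other 4357. By chromosome the shared new regions were between 7.17% (X) and 11.4% (18) of the union regions, with chromosome 17 at 8.02%.

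**Figure D2:**
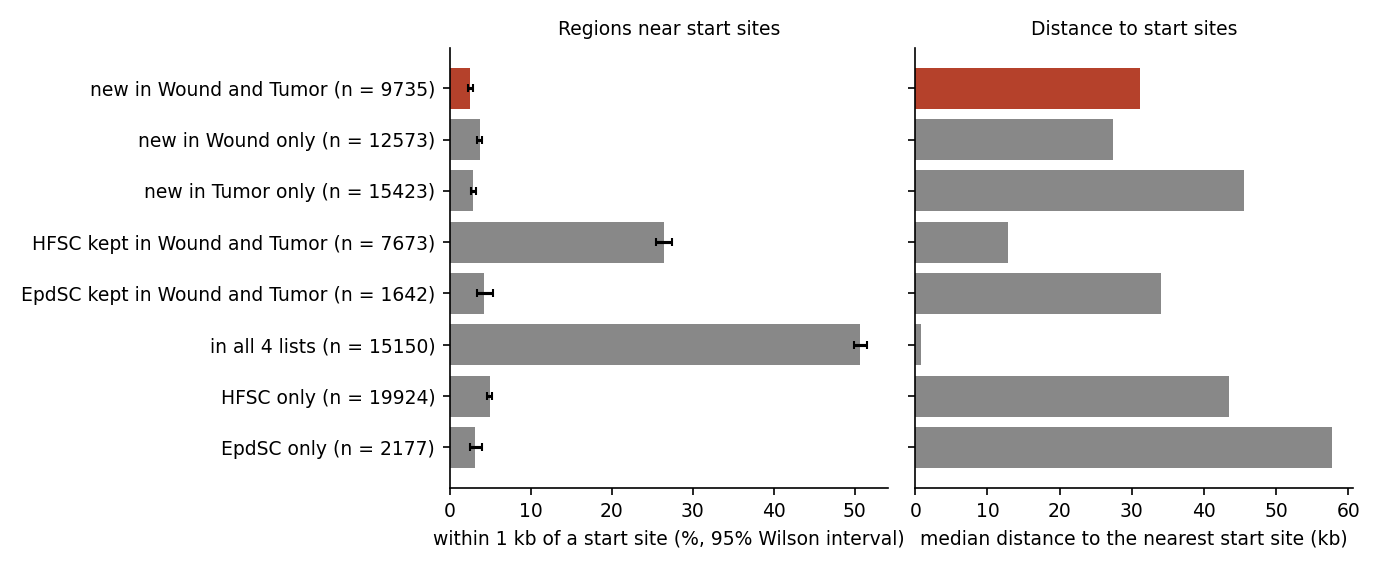
Left: percentage of regions centred within 1 kb of a start site, with 95% Wilson intervals, for 8 classes of region named by the lists they are in. Right: median distance from the region to the nearest start site in kb. The shared new regions (red) have 2.51% near a start site and a median distance of 31.1 kb, while regions in all 4 lists have 50.7% and 0.847 kb.

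The few shared new regions at promoters carried AP-1 letters in a larger share than those of any other class examined, with an interval that overlapped that of regions new in Tumor only. The lower end of the interval, 33.8%, was close to the upper end for regions new in Wound only, 32.9%. Windows of neighbouring starts can hold the same summit, as at Gm36199 and Prxl2a, so some regions count more than once. The intervals treat windows as independent. Of the 134 promoter windows that held the Wound summit of a shared new region, 41.8% contained TGANTCA (95% Wilson interval 33.8 to 50.3%), compared with 25.6% of 160 windows of regions new in Wound only (19.5 to 32.9%), 30.3% of 175 windows of regions new in Tumor only (24.0 to 37.5%), 4.77% of 5745 windows of regions in all 4 lists and 7.85% of all 32585 windows. The ETS letters AGGAAG were in 45.5%, against 30.6% of windows new in Wound only, 45.1% of those new in Tumor only and 35.2% of all windows. Their intervals in the shared new regions (37.3 to 54.0%) and in regions new in Wound only (24.0 to 38.2%) overlap. The RUNX letters TGTGGT were in 26.1%, against 20%, 22.9% and 16.6%, with intervals that overlap between the 3 classes of new regions. The TEAD letters GGAATG were in 16.4%, against 18.8%, 15.4% and 14.6%, and the homeobox letters TAATTA in 0.746%, against 6.25%, 5.71% and 5.26%. The homeobox share is 1 of 134 windows, and its interval (0.132 to 4.11%) overlaps those of both other classes of new regions. Base composition differs between the classes: the median GC content was 52.3% in the 134 windows and 62.7% in the windows of regions in all 4 lists, with 4 and 24 CpG, beside 53% and 7 CpG over all windows. Where AP-1 letters were present, they lay within 50 bp of the Wound summit in 38 of 56 windows (67.9%, 54.8 to 78.6%), against 65.9% of 41 windows new in Wound only (50.5 to 78.4%), 71.7% of 53 new in Tumor only (58.4 to 82.0%) and 46.0% of 274 windows of regions in all 4 lists (40.2 to 51.9%). A match of letters is a description of the sequence and shows no bound factor. Regions centred within 1 kb of a start site are 2.51% of the shared new regions. The search covered only the 300-base promoter windows that hold a summit. All other shared new regions were not searched for want of their sequence.

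**Figure D3:**
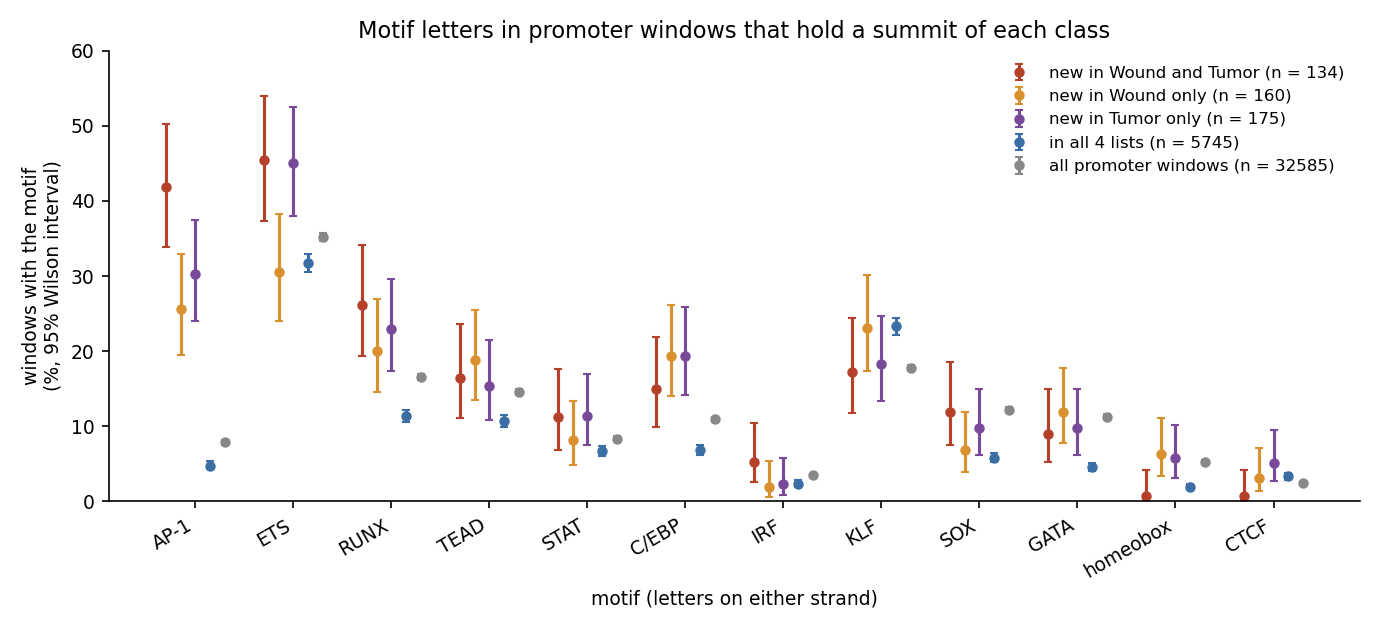
Percentage of 300-base promoter windows that contain each set of motif letters on either strand (y axis, points with 95% Wilson intervals), for windows that hold a summit of the shared new regions (red), of regions new in Wound only (orange), of regions new in Tumor only (purple), of regions in all 4 lists (blue), and for all windows (grey). AP-1 letters stand at 41.8% in the shared new regions and at 7.85% over all windows.

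The strongest shared new regions, ranked by the lower of the wound and tumour folds, lay mostly far from start sites. The region of highest rank had folds of 16.5 in Wound and 19.9 in Tumor and lay 329 kb from Dsc3, a desmosomal cadherin of the basal epidermis. The next was a 734 bp region at chr13:72455952-72456685, 173 kb from Irx2, a homeobox factor, with folds of 16.4 and 17.2. The third, at chr1:173766718-173767577, was centred 0.0780 kb from an end of Ifi204, an interferon-inducible DNA sensor whose start was not known here, with folds of 16.2 and 22.3 and pileups of 39 and 173. Others were 212 kb from Spry2, an inhibitor of Ras signalling (chr14:105684323-105684736, folds of 15.1 and 18.0), and 94.7 kb from Tbxas1, the thromboxane synthase (chr6:39013433-39013990, 14.9 and 15.7). Pileups of the 12 ran from 39 to 75 fragments in Wound and from 64 to 198 in Tumor.

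Most shared new regions stood alone, and a minority formed dense stretches. When regions less than 12.5 kb apart were joined, 7321 of 8413 stretches held a single one, and 143 regions (1.47%) were in stretches of 4 or more. One of the pair with the most, at chr19:29880978-29912401, held 6 shared new regions among 9 union regions over 31.4 kb upstream of Il33, an alarm cytokine of barrier cells. Its folds ran from 2.53 to 12.2 in Wound and from 3.04 to 14 in Tumor, and 1 more region of Il33 lay 3.18 kb from the start. The other stretch of 6 lay at Niban2 and Lrsam1 over 46.8 kb, and stretches of 5 lay at Ywhaz and Zfp706, at Tmem117 and Twf1, and at Mtif3.

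To set RNA beside the regions, each region was assigned to the coding gene with the nearest start within 100 kb. This placed 7777 regions on 4906 genes, of which 3170 had 1, 1037 had 2, 597 had 3 or 4 and 102 had 5 or more. RNA libraries held 14216472 to 32663874 counts. A gene was called higher or lower at an adjusted p below 0.05, and levels are CPM, counts per library size, as edgeR scales them. Over all 14831 genes tested, 21.4% were higher and 24.7% lower in the wounded HFSC lineage than in HFSC, and 30.2% were higher and 28.2% lower in wounded EpdSC than in EpdSC. Over the 16201 genes tested in tumour cells, 30.7% were higher and 26.1% lower than in Tbr skin stem cells.

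Markers of other cell types moved with some groups, and their part in the results below was not tested. Summed over 6 leukocyte markers, RNA stood at 326 and 415 CPM in wounded EpdSC, against 4.00 and 5.40 CPM in EpdSC, and at 92.9 and 118 CPM in tumour cells, against 19.8 and 6.46 CPM in Tbr HFSC and Tbr EpdSC. Summed over 6 fibroblast markers, it stood at 608 and 676 CPM in wounded EpdSC, against 2.78 and 2.42 CPM in EpdSC, and at 2316 and 970 CPM in tumour cells, against 37.6 and 8.57 CPM. In the wounded HFSC lineage these sums were 10.2 and 10.7 CPM for leukocytes, against 5.57 and 9.92 CPM in HFSC, and 9.32 and 6.47 CPM for fibroblasts, against 35.2 and 38.0 CPM. The sums were thus far above the unwounded libraries in wounded EpdSC and tumour cells, while in the wounded HFSC lineage the leukocyte sum was close to HFSC and the fibroblast sum below it. Summed over 6 endothelial markers, RNA stood at 22.0 and 16.1 CPM in wounded EpdSC, against 1.39 and 1.43 CPM in EpdSC, at 5.67 and 6.10 CPM in the wounded HFSC lineage, against 0.537 and 1.41 CPM in HFSC, and at 214 and 132 CPM in tumour cells, against 1.68 and 1.39 CPM. The leukocyte markers at 0 were Cd79a in both libraries of the wounded HFSC lineage, the HRas TbrKO tumour, HFSC B and Tbr HFSC, and Cd3e in the HRas tumour, and no leukocyte, fibroblast or endothelial marker was at 0 in wounded EpdSC. Summed over 6 melanocyte markers, RNA stood at 6.82 and 5.47 CPM in the wounded HFSC lineage, against 91.0 and 58.0 CPM in HFSC, at 13.7 and 18.0 CPM in wounded EpdSC, against 15.9 and 21.2 CPM in EpdSC, and at 11 and 7.06 CPM in tumour cells, against 128 and 18.7 CPM in Tbr HFSC and Tbr EpdSC. In bulk RNA, more cells of a type and more RNA per cell cannot be told apart. In the peak lists, 0 of 6 fibroblast and 0 of 6 endothelial marker promoters had a peak in Wound or in Tumor, and of the leukocyte markers only Cd68 had one, in Wound, Tumor and HFSC. Of 6 keratinocyte markers, 3 had a promoter peak in Wound (Krt5, Itga6 and Perp) and 4 in Tumor (these and Itgb4), against 5 in HFSC and 4 in EpdSC.

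Genes with many shared new regions were called higher more often, though the size of this excess depended on how regions were assigned. In the wounded HFSC lineage, 26.3% of the 3981 tested genes with 1 or more shared new regions were higher, beside the 21.4% of all genes, and 22.9% were lower, beside 24.7%. In tumour cells, 37.0% of 4246 such genes were higher, beside 30.7%, and 23.0% were lower, beside 26.1%. In wounded EpdSC the shares of 30.7% higher and 30.3% lower were near those of all genes. For the 96 tested genes with 5 or more, the shares higher were 36.5% (95% Wilson interval 27.5 to 46.4%) in the wounded HFSC lineage, 36.5% (27.5 to 46.4%) in wounded EpdSC and 49.0% (39.2 to 58.8%) in tumour cells, and the median log2 fold changes were 0.44, 0.15 and 0.72, beside −0.10, −0.04 and 0.11 over all genes. With each region given to the nearest gene span instead, the shares among genes with 5 or more were 25.4%, 28.4% and 40.8%, and with no limit on distance they were 24.9%, 25.7% and 41.0%. Under both settings wounded EpdSC fell below the 30.2% of all genes, and the excess in the wounded HFSC lineage shrank to 4.03 and 3.55 percentage points.

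The same count was made for genes rich in regions of other classes. Among genes with 5 or more regions new in Wound only, 33.8%, 24.7% and 34.4% were higher in the wounded HFSC lineage, wounded EpdSC and tumour cells. Among genes with 5 or more regions new in Tumor only, these shares were 17.0%, 29.4% and 46.2%. In the wounded HFSC lineage the interval for Wound only (26.8 to 41.5%) overlapped that for the shared new regions (27.5 to 46.4%). In tumour cells the intervals for Tumor only (39.2 to 53.4%) and for the shared new regions (39.2 to 58.8%) overlapped as well. Genes with 5 or more regions found in HFSC only went the other way, with 8.91%, 19.6% and 20.7% higher and 52.4%, 47.5% and 46.8% lower. For genes with 5 or more regions in all 4 lists, 23.6%, 16.1% and 24.1% were higher and 33.3%, 48.9% and 41.4% lower. Of 1482 genes with 2 or more shared new regions that were tested in all 3 comparisons, 211 (14.2%) were higher in all of them, beside 10.3% of all genes, and 147 (9.92%) were lower in all, beside 9.49%. The wounded and the tumour comparisons share no library, while both wound comparisons come from 1 fit.

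**Figure D4:**
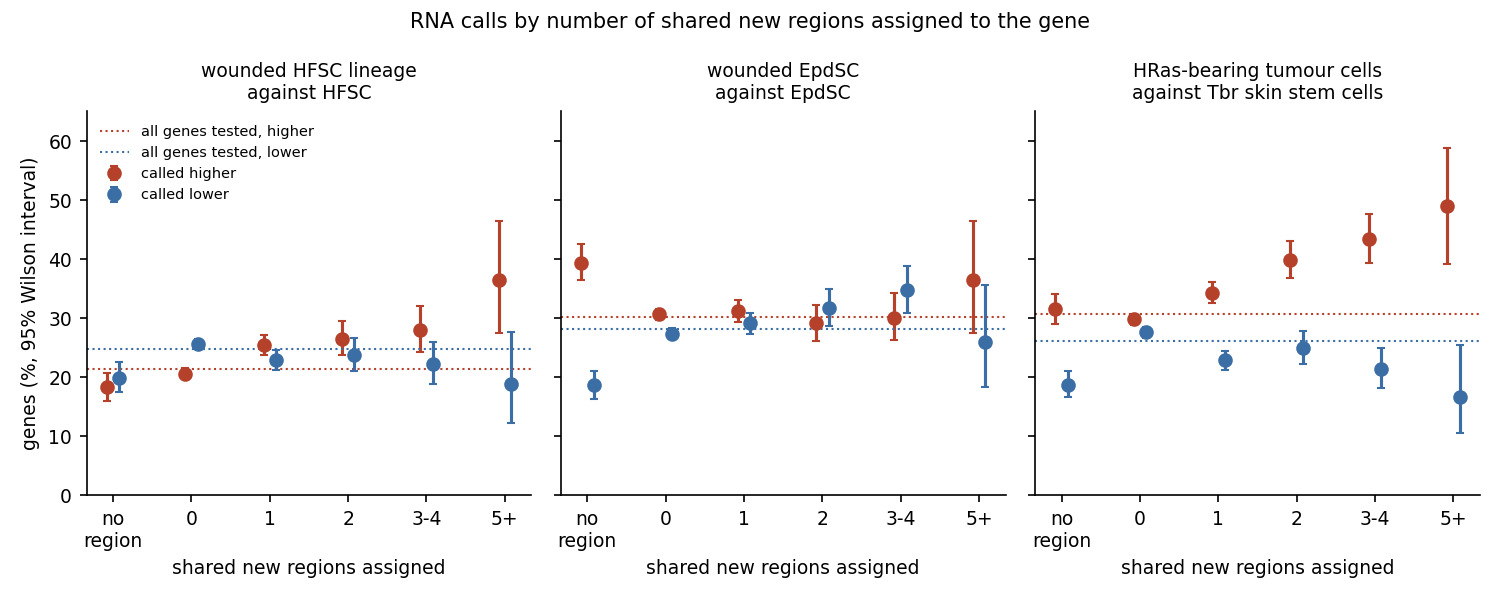
Percentage of tested genes called higher (red) and lower (blue) in each RNA comparison (panels), by the number of shared new regions assigned to the gene (x axis; no region means none of any class, and 0 means other regions only), with 95% Wilson intervals. Dotted lines mark the share over all genes tested. With 5 or more, 36.5%, 36.5% and 49.0% of genes were higher in the 3 comparisons.

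Genes with 2 or more shared new regions that were higher in all 3 comparisons included matrix proteases, a chemokine and enzymes. Ranked by the smallest of the 3 log2 fold changes, the first was Clrn3, a small tetraspan membrane protein: it had 4.22 and 7.21 CPM in the wounded HFSC lineage, 5.16 and 8.26 in wounded EpdSC and 6.42 and 6.91 in tumour cells, and it was at 0 in all 6 comparison libraries. Against a floor of 3 counts per group, this is at least 98.0-fold higher in the wounded HFSC lineage, at least 87.4-fold in wounded EpdSC and at least 85.1-fold in tumour cells. Tmem163, a zinc transporter of vesicles, likewise was at 0 in all comparison libraries and by group means rose at least 68.4-fold, 59.3-fold and 64.1-fold. In tumour cells Tmem163 had 1.52 CPM in the HRas tumour and 8.51 CPM in the HRas TbrKO tumour. The last bound therefore rests mostly on the HRas TbrKO library. It had 5 shared new regions, from 2.09 to 69.6 kb from its start, among them chr1:127666317-127666640 with folds of 9.12 in Wound and 7.95 in Tumor and chr1:127622258-127622847 with 7.47 and 14.

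Gsta4, a glutathione transferase that clears products of lipid oxidation, had 355 and 354 CPM in the wounded HFSC lineage, against 0.283 and 0.259 CPM in HFSC. It had 326 and 388 CPM in wounded EpdSC, against 0.899 and 0.497 CPM in EpdSC, and 1467 and 3089 CPM in tumour cells, against 4.78 and 11 CPM in the Tbr libraries. The groups were far apart in every comparison, with log2 fold changes of 10.30 ± 0.34, 8.94 ± 0.32 and 8.23 ± 0.64 (SE). Its shared new regions at chr9:78183791-78184363 and chr9:78212329-78212906 had folds of 9.96 and 11.6, and of 8.31 and 9.11, in Wound and Tumor. Car2, a carbonic anhydrase, had 77.9 and 80.0 CPM in the wounded HFSC lineage, against 0.141 and 0.333 CPM in HFSC (log2 fold change 8.39 ± 0.39, adjusted p = 3.16e-05), and 335 and 436 CPM in tumour cells, against 0.646 and 0.296 CPM.

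Mmp13, a collagenase, had 253 and 322 CPM in the wounded HFSC lineage, against 0.141 and 0.259 CPM in HFSC (log2 fold change 10.48 ± 0.69, adjusted p = 8.57e-05). It had 73.7 and 190 CPM in wounded EpdSC and 0 in both EpdSC libraries, at least 1715-fold higher, and 150 and 134 CPM in tumour cells, against 0.581 and 2.66 CPM. Adam12, a membrane metalloprotease of wounds and carcinomas, had 21.0 and 39.1 CPM in the wounded HFSC lineage, against 0 and 0.222 CPM in HFSC, and 87.3 and 37.3 CPM in tumour cells, against 0.646 and 0.0422 CPM. Of 12 union regions of Adam12, 7 were shared new ones, among them chr7:134230862-134232131 with folds of 8.62 and 8.12 and chr7:134236720-134237775 with 6.32 and 13.1. Ccl8, a chemokine that draws leukocytes, had 48.3 and 36.0 CPM in the wounded HFSC lineage, against 0 and 0.0740 CPM in HFSC. Its log2 fold change there was 10.13 ± 0.68. Ccl8 was at least 604-fold higher in wounded EpdSC than in EpdSC. In tumour cells its log2 fold change was 7.52 ± 0.27. Leukocyte markers summed to 10.2 and 10.7 CPM in the wounded HFSC lineage and to more in wounded EpdSC and tumour cells. Which cells gave the Ccl8 RNA was not tested. Kcnk1, a potassium channel with 5 shared new regions, had 69.0 and 82.3 CPM in the wounded HFSC lineage, against 0.678 and 0.740 CPM in HFSC, and 68.5 and 55.2 CPM in tumour cells, against 0.516 and 0.296 CPM. Sparcl1, a secreted matrix protein, rose by 6.90, 6.80 and 7.25 on the log2 scale in the 3 comparisons, and Tmprss11e, a serine protease of stratified epithelia, by 6.83, 7.0 and 9.62. Plac8 rose at least 104-fold in the wounded HFSC lineage and at least 398-fold in wounded EpdSC, and Tmem117 at least 252-fold in wounded EpdSC.

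**Figure D5:**
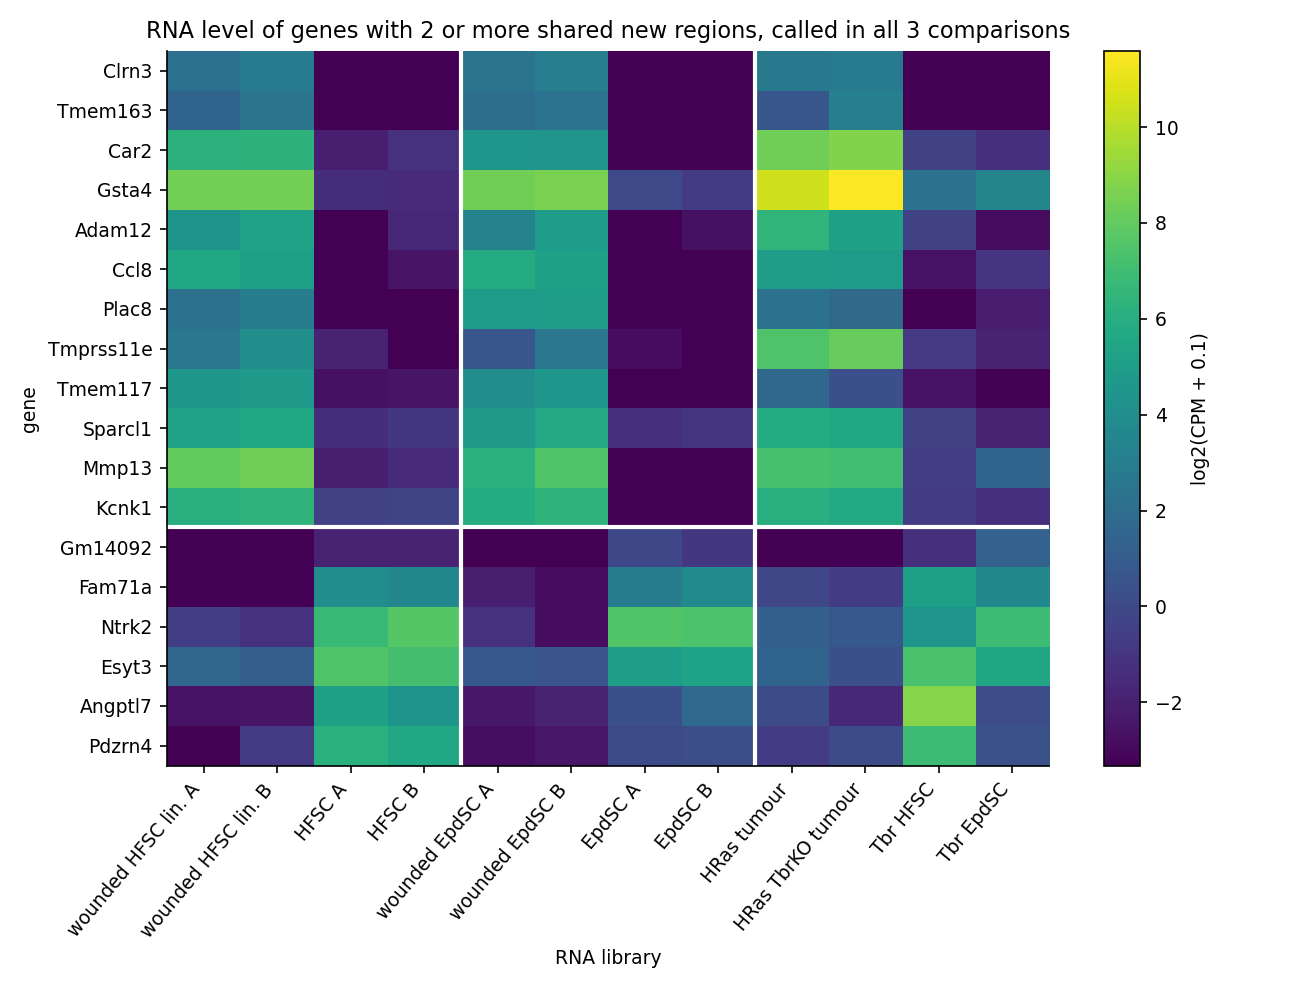
RNA level as log2(CPM + 0.1) (colour) of the 12 genes called higher and the 6 called lower in all 3 comparisons (rows, with a white line between them) in each library (columns). White vertical lines separate the wounded HFSC lineage with HFSC, wounded EpdSC with EpdSC, and tumour cells with Tbr HFSC and Tbr EpdSC. The upper 12 genes are brighter in wounded and tumour libraries than in those they are set against, and the lower 6 are darker, although Angptl7 and Pdzrn4 are also dark in EpdSC and Tbr EpdSC and Gm14092 in HFSC and Tbr HFSC.

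Not all genes beside shared new regions were higher. Ntrk2, a neurotrophin receptor, fell to 0.593 and 0.335 CPM in the wounded HFSC lineage, against 108 and 203 CPM in HFSC, and to 0.328 and 0.0426 CPM in wounded EpdSC, against 183 and 164 CPM in EpdSC. In tumour cells it had 2.29 and 1.60 CPM, against 21.9 and 119 CPM (log2 fold change −4.78 ± 0.31). Its regions at chr13:58883021-58883295 and chr13:58896290-58896726 had Wound folds of 7.66 and 9.54 and Tumor folds of 4.41 and 4.87, 76.6 and 89.9 kb from the start. Esyt3, a lipid transfer protein, fell in all 3 comparisons too, with log2 fold changes of −6.01 ± 0.29, −4.59 ± 0.28 and −5.46 ± 0.42. Angptl7, a secreted angiopoietin-like protein, had 0.943 and 0.234 CPM in tumour cells, against 476 CPM in Tbr HFSC and 1.06 CPM in Tbr EpdSC, and without the Tbr HFSC library its tumour call was lost (log2 fold change −0.85, adjusted p = 0.438), as was that of Pdzrn4 (−0.71, adjusted p = 0.417). Pdzrn4 also lost its wounded EpdSC call without any 1 of the libraries compared (adjusted p up to 0.0765). Fam71a was at 0 in the wounded HFSC lineage, at least 289-fold lower than in HFSC, and fell in the other comparisons by 6.87 and 5.04 on the log2 scale. Gm14092 fell in all 3 comparisons at under 3 CPM in every library, with wound calls that were lost when any 1 of the libraries compared was left out (adjusted p up to 0.203).

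Of the 12 genes with the most shared new regions (7 or 8 each), RNA moved in different directions. Mad1l1, a spindle checkpoint protein, had 8, among them one at chr5:140174453-140175244 that lay 0.0700 kb from its start. It had 60.5 and 50.1 CPM in the wounded HFSC lineage, against 21.8 and 30.1 CPM in HFSC, 79.9 and 73.8 CPM in wounded EpdSC, against 32.8 and 32.3 CPM in EpdSC, and 152 and 158 CPM in tumour cells, against 18.9 and 26.1 CPM. It rose in all 3 comparisons, by 1.07 ± 0.22, 1.24 ± 0.22 and 2.74 ± 0.16 on the log2 scale. Pthlh, the parathyroid hormone-like hormone of keratinocytes and squamous carcinomas, had 8 regions between chr6:147188775 and chr6:147322951. It had 359 and 320 CPM in tumour cells, against 17.4 and 3.84 CPM, a rise of 5.31 ± 0.19. In the wounded HFSC lineage it had 10 and 26 CPM, against 53.6 and 45 CPM in HFSC, which did not pass the test (adjusted p = 0.109). In wounded EpdSC it had 6.57 and 27.0 CPM, against 1.27 and 2.73 CPM in EpdSC, a rise of 3.10 ± 0.76 whose call was lost without EpdSC library A (2.61, adjusted p = 0.0823).

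Il33 had 319 and 624 CPM in the wounded HFSC lineage, against 63.3 and 78.2 CPM in HFSC, and rose there by 2.72 ± 0.53 (adjusted p = 0.00451). In wounded EpdSC it had 179 and 546 CPM, around the 329 and 311 CPM of EpdSC (adjusted p = 0.771), and in tumour cells 209 and 482 CPM, around the 74.2 and 383 CPM of the Tbr libraries (adjusted p = 0.172, or 0.0468 without the HRas tumour). Slc22a23 and Bcar3, an adaptor of integrin signalling, rose in wounded cells of the HFSC lineage (2.06 ± 0.28 and 2.08 ± 0.28) and in tumour cells (1.12 ± 0.18 and 2.40 ± 0.16), and neither passed the test in wounded EpdSC (0.18 and −0.56). Cyp26b1, which degrades retinoic acid, fell in the wounded HFSC lineage by 2.72 on the log2 scale, and Btbd11 fell in both wound comparisons (−0.98 and −1.31), the first of these lost without library B of the wounded HFSC lineage (adjusted p = 0.0759). Ppp3ca, a calcineurin catalytic subunit, with 8 regions, passed in none of the 3 (adjusted p of 0.883, 0.0760 and 0.708), but fell in wounded EpdSC when library B of that group was left out (adjusted p = 0.00237). Foxp1, a forkhead factor, passed in the wounded HFSC lineage alone (−0.98, adjusted p = 0.0389), a call lost without any 1 of the libraries compared (adjusted p from 0.0735 to 0.223). Nebl had 9.33 and 29.2 CPM in wounded EpdSC, against 3.72 and 4.28 CPM in EpdSC (2.27 ± 0.54), a call lost without EpdSC A or B (adjusted p of 0.0668 and 0.0507). Adamts16, a matrix protease, stayed under 2 CPM in every library compared here.

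Genes with a shared new region at the promoter were higher in larger shares. The promoter windows belonged to 146 genes, 84 of them coding, of which 65 passed the filter on low counts in the wound comparisons and 75 in the tumour comparison. Of these, 26 (40.0%) were higher and 9 (13.8%) lower in the wounded HFSC lineage, 38 (58.5%) and 5 (7.69%) in wounded EpdSC, and 44 (58.7%) and 9 (12%) in tumour cells, beside the shares of 21.4 and 24.7%, 30.2 and 28.2%, and 30.7 and 26.1% over all genes. A gene that is silent in 1 group passes the filter only through the other, so these shares hold for genes that passed and not for all 146. Wounded EpdSC and tumour cells, with the larger shares, also had the higher sums of leukocyte and fibroblast markers.

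Among the genes whose sequences are shown above, S100a8, a subunit of the alarm protein calprotectin, had 147 and 273 CPM in the wounded HFSC lineage, against 0.594 and 0.481 CPM in HFSC. It had 68.8 and 243 CPM in tumour cells, against 9.62 and 8.06 CPM, and rose in all 3 comparisons (8.57 ± 0.57, 10.03 ± 0.64 and 4.08 ± 0.86). Cd80 had 111 and 115 CPM in tumour cells, against 0.0646 and 0.507 CPM, a rise of 9.16 ± 0.29, and 5.07 and 7.55 CPM in the wounded HFSC lineage, against 0.311 and 0.0370 CPM. Il1f8 had 14.3 and 14.9 CPM in the wounded HFSC lineage, against 0.0848 and 0.0370 CPM in HFSC, and 1.05 and 3.20 CPM in tumour cells, against 2.00 and 0.676 CPM, so it rose in wounds (7.72 ± 0.51 and 5.76 ± 0.53) and did not pass in tumour cells (adjusted p = 0.393). Clec2h had 2.11 and 2.94 CPM in the wounded HFSC lineage and 0 in HFSC, at least 43.3-fold higher, and was too low to be tested in tumour cells. Mndal and Klra2 did not pass in the wounded HFSC lineage (adjusted p of 0.426 and 0.792). Mndal rose in tumour cells to 9.25 and 18.9 CPM, against 0.775 and 1.60 CPM in Tbr HFSC and Tbr EpdSC. Klra2 rose there to 1.27 and 3.32 CPM, against 0.194 and 0 CPM. In wounded EpdSC Mndal did not pass (adjusted p = 0.224), while Klra2 rose to 2.06 and 5.75 CPM, against 0.0409 and 0 CPM in EpdSC (7.07 ± 1.31). Leukocyte markers were also higher in wounded EpdSC and tumour cells, and which cells gave the Klra2 RNA was not tested. The tumour call of Klra2 was lost without Tbr EpdSC (adjusted p = 0.0867). Mmp1b rose at least 90.4-fold in the wounded HFSC lineage, where it had 3.00 and 7.55 CPM, and had 23.4 and 14.7 CPM in tumour cells, against 0.516 and 0.802 CPM. Mmp1b and Mmp1a are close paralogs, as are several Ifi200 genes, and how reads were split between them is not known.

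The gene lists that follow group genes by role, and genes named from them with fewer than 3 shared new regions were chosen after their values were seen. Of 13 matrix and surface proteases, 7 had a shared new region, and of these 5, 5 and 7 were higher and 1, 0 and 0 lower in the wounded HFSC lineage, wounded EpdSC and tumour cells. Of all 13, with or without a region, 9, 9 and 12 were higher, which is 5 of 7 beside 9 of 13 in wounds and 7 of 7 beside 12 of 13 in tumour cells. On chromosome 9, Mmp1a, Mmp1b, Mmp10 and Mmp13, neighbours in the matrix metalloprotease cluster, held 6 shared new regions between them. Mmp10, a stromelysin of wound-edge keratinocytes, had 17.9 and 25.5 CPM in the wounded HFSC lineage and 0 in HFSC, at least 372-fold higher, and 42.8 and 51.9 CPM in tumour cells, against 0.904 and 3.34 CPM. Mmp9, a gelatinase, had 181 and 198 CPM in the wounded HFSC lineage, against 0.283 and 2.41 CPM in HFSC, and 69.0 and 28.3 CPM in tumour cells, against 1.94 and 0.676 CPM. Plat, the tissue plasminogen activator, was the exception and fell in the wounded HFSC lineage by 1.41 on the log2 scale, a call lost without library A of that group (adjusted p = 0.0578).

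Of 15 keratins and alarm proteins of wounded epidermis, 7 had a shared new region, and 5, 5 and 6 of these were higher in the 3 comparisons and none lower, where 6, 6 and 7 could be tested. Of all 15, 12, 13 and 14 were higher. Krt16 and Krt6a, keratins that stressed epidermis makes, each had 1 region, 0.266 and 1.01 kb from the gene. Krt16 had 10084 and 8765 CPM in the wounded HFSC lineage, against 13.2 and 31.1 CPM in HFSC, and 1490 and 2975 CPM in tumour cells, against 144 and 376 CPM. Krt6a had 18986 and 14640 CPM in wounded EpdSC, against 3.56 and 4.53 CPM in EpdSC. Reads of Krt6a and Krt16 can be shared with close paralogs. Sprr3, a cornified envelope protein, had the strongest region of the list (folds of 11.3 and 15, 3.21 kb away) and most RNA in tumour cells: 18.1 and 39.6 CPM in tumour cells, against 0.258 and 0 CPM, with at most 0.0659 CPM in any wounded library.

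Among ligands and receptors, 7 of 8 EGF family genes had 17 shared new regions in all. With a region, 0 were higher and 1 lower in the wounded HFSC lineage, 2 and 3 in wounded EpdSC, and 4 and 1 in tumour cells. Over all 8 genes, with or without a region, 1, 3 and 5 were higher and 1, 3 and 1 lower. Ereg and Areg, neighbouring EGF receptor ligands on chromosome 5, had 5 and 3 regions, one of them at chr5:91083098-91083521 inside Ereg with folds of 13.4 and 6.83. Areg had 306 and 334 CPM in tumour cells, against 41.5 and 25.2 CPM (3.24 ± 0.17), and 21.4 and 33.4 CPM in the wounded HFSC lineage, against 7.32 and 15 CPM (adjusted p = 0.0845). Egfr, the receptor, with 5 regions, had 56.1 and 85.5 CPM in wounded EpdSC, against 262 and 218 CPM in EpdSC, and 87.6 and 84.0 CPM in tumour cells, against 242 and 200 CPM. It fell in both (−1.76 ± 0.30 and −1.42 ± 0.15). The rise of Ereg in tumour cells (1.06 ± 0.18) was lost without Tbr EpdSC (adjusted p = 0.202).

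Of 15 cytokine genes, 11 had a shared new region, and 5, 4 and 6 of those were higher and 1, 3 and 2 lower, where 9, 9 and 11 could be tested. The whole list had 6, 6 and 7 higher and 3, 5 and 2 lower, where 13, 13 and 15 could be tested. Il24, a cytokine of the IL-10 family, had 11.8 and 27.3 CPM in the wounded HFSC lineage, against 0.198 and 0.518 CPM in HFSC, 17.8 and 33.6 CPM in wounded EpdSC, against 0.0409 and 0.248 CPM in EpdSC, and 498 and 537 CPM in tumour cells, against 0.904 and 1.82 CPM. Its region lay 1.77 kb from the gene. Tslp, an alarm cytokine, rose in both wound groups, to 67.8 and 69.4 CPM in the wounded HFSC lineage, against 2.29 and 1.37 CPM in HFSC, and had 3.12 and 13.1 CPM in tumour cells, around the 3.55 and 12.1 CPM of the Tbr libraries. Cxcl1, a neutrophil chemokine, ran the other way: 509 and 405 CPM in tumour cells, against 18.1 and 23.3 CPM, and 1.25 and 2.31 CPM in the wounded HFSC lineage, against 5.96 and 14.7 CPM in HFSC (−2.56 ± 0.55). Il20ra, a receptor subunit for IL-20 group cytokines, fell in wounded EpdSC and in tumour cells (−3.91 ± 0.33 and −6.73 ± 0.22).

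Of 13 TGF-beta pathway genes, 8 had a shared new region, and 2, 2 and 4 of those were higher and 2, 2 and 1 lower. In the whole list 3, 5 and 8 were higher and 2, 2 and 2 lower. Pmepa1, a target and inhibitor of the pathway, had 141 and 169 CPM in the wounded HFSC lineage, against 3.00 and 7.07 CPM in HFSC, and 103 and 161 CPM in wounded EpdSC, against 8.91 and 10.7 CPM in EpdSC. Tgfbr2, the type II receptor, and Smad3, a signal transducer, rose in tumour cells (1.19 ± 0.16 and 1.17 ± 0.16), the first without Tbr HFSC at adjusted p = 0.0503. Of the tumour libraries, 1 is labelled TbrKO.

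Genes of adhesion and migration were mostly higher in tumour cells. Of 15 integrins, laminins and their ligands, 11 had a shared new region, with 4, 4 and 7 higher and 3, 3 and 1 lower. All 15 together had 5, 5 and 9 higher and 4, 5 and 1 lower. Of 15 actin and migration genes, 10 had one, with 6, 6 and 9 higher and 1, 2 and 1 lower. For this list as a whole, 9, 10 and 14 were higher and 3, 2 and 1 lower. Itga5, the fibronectin receptor subunit, and Tnc, a matrix protein of wounds, rose in all 3 comparisons (1.68, 3.81 and 2.42, and 2.23, 4.23 and 3.71). Pdpn, podoplanin, with 4 regions, had 52.7 and 85.5 CPM in the wounded HFSC lineage, against 0.452 and 1.11 CPM in HFSC. Fscn1, an actin bundler, and Fblim1, a filamin partner, rose in all 3 (6.28, 6.08 and 5.57, and 5.40, 8.10 and 5.07). Lama5, a laminin chain, fell in both wound comparisons (−3.05 and −2.95) and did not pass in tumour cells (adjusted p = 0.484).

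Genes of the AP-1 family were lower in wounded cells. Of 10 AP-1 genes, 4 had a shared new region (Jun 3, and Fos, Fosl2 and Maff 1 each), and all 4 were lower in both wound comparisons, as were 9 and 9 of all 10. Jun had 129 and 129 CPM in the wounded HFSC lineage, against 2757 and 4591 CPM in HFSC, 119 and 149 CPM in wounded EpdSC, against 3565 and 3949 CPM in EpdSC, and 660 and 670 CPM in tumour cells, against 1677 and 1940 CPM. Fos had 42.2 and 56.0 CPM in the wounded HFSC lineage, against 4834 and 8495 CPM in HFSC. Fosl2 and Maff fell by 1.17 and 2.96 in the wounded HFSC lineage, the call of Fosl2 being lost without HFSC B (adjusted p = 0.108) and without library A or B of the wounded HFSC lineage (0.0844 and 0.110).

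Feedback inhibitors of the MAPK pathway were mostly lower in wounded cells. Of 11 such genes, 6 had a shared new region. In the wounded HFSC lineage, wounded EpdSC and tumour cells, 0, 0 and 2 of those were higher and 5, 6 and 1 lower. Of all 11, with or without a region, 0, 1 and 5 were higher and 9, 8 and 3 lower. Dusp1, a phosphatase of MAP kinases, had 29.7 and 29.8 CPM in the wounded HFSC lineage, against 1328 and 2310 CPM in HFSC, and 441 and 507 CPM in tumour cells, against 1761 and 2827 CPM. Dusp5, with 3 regions, had 4.81 and 3.01 CPM in the wounded HFSC lineage, against 15 and 32.0 CPM in HFSC, and 57.7 and 52.3 CPM in tumour cells, against 7.55 and 16.4 CPM, so it fell in that wound group and rose in tumour cells (−2.61 ± 0.45 and 2.24 ± 0.25). Spry2, with 4 regions within 100 kb, fell in the wounded HFSC lineage by 1.23 on the log2 scale, a call lost without library B of that group (adjusted p = 0.0568).

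Of 12 ETS genes, 9 had a shared new region, and 4, 3 and 6 of those were higher and 0, 1 and 1 lower. Over the whole list 4, 4 and 8 were higher and 1, 2 and 1 lower. Elk3, an ETS factor that responds to Ras signalling, had 4 regions and rose in all 3 comparisons. It had 50.6 and 55.6 CPM in the wounded HFSC lineage, against 1.84 and 5.44 CPM in HFSC, 35.0 and 57.5 CPM in wounded EpdSC, against 2.08 and 3.29 CPM in EpdSC, and 183 and 142 CPM in tumour cells, against 6.07 and 6.54 CPM. Ets1 rose in the wounded HFSC lineage (2.16 ± 0.42) and in tumour cells (1.06 ± 0.18), the second lost without Tbr HFSC (adjusted p = 0.512). Ets2 fell in wounded EpdSC (−1.67 ± 0.39).

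Of 12 STAT and NF-kB genes, 7 had a shared new region, with 2, 2 and 1 higher and 4, 4 and 2 lower. The whole list had 3, 2 and 2 higher and 7, 6 and 4 lower. Nfkbiz, an inducible cofactor of NF-kB, had 3 regions and fell to 13.6 and 15.7 CPM in the wounded HFSC lineage, against 256 and 411 CPM in HFSC, and to 7.08 and 14.4 CPM in wounded EpdSC, against 574 and 626 CPM in EpdSC. Of 14 RUNX, TEAD and YAP genes, 6 had a region, with 1, 3 and 2 higher and 2, 3 and 3 lower. This list as a whole had 1, 5 and 6 higher and 7, 7 and 6 lower, where 13, 13 and 14 could be tested. Ccn1, a target of YAP and TEAD, had 18.0 and 21.7 CPM in the wounded HFSC lineage, against 901 and 1325 CPM in HFSC, and 142 and 94.8 CPM in tumour cells, against 1428 and 746 CPM. Runx3 rose in wounded EpdSC and tumour cells (6.67 ± 1.11 and 3.46 ± 0.40), the groups with higher leukocyte markers. Lymphocytes are known to express Runx3, and which cells gave its RNA was not tested. Tead1 fell in wounded EpdSC (−3.12 ± 0.55).

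Genes of the resting follicle were lower in the wounded HFSC lineage, although shared new regions lay beside them. Of 11 HFSC factors, 7 had a shared new region, and 0, 1 and 0 of those were higher and 7, 4 and 5 lower in the 3 comparisons. Of all 11, with or without a region, 11, 7 and 8 were lower. Nfib, a factor of quiescent follicle stem cells, had 22.5 and 73.9 CPM in the wounded HFSC lineage, against 556 and 403 CPM in HFSC, and 66.9 and 38.8 CPM in tumour cells, against 1218 and 444 CPM. Sox9, a master factor of the follicle, had 44.1 and 44.9 CPM in the wounded HFSC lineage, against 150 and 162 CPM in HFSC, and 95.5 and 59.2 CPM in tumour cells, between the 244 CPM of Tbr HFSC and the 36.3 CPM of Tbr EpdSC (adjusted p = 0.299, and 1.07 on the log2 scale with adjusted p = 0.0447 without Tbr HFSC). Zfp36l2, an RNA-binding protein with 3 regions, fell in all 3 comparisons (−2.13 ± 0.42, −2.57 ± 0.43 and −1.71 ± 0.21). Gli3, a Hedgehog factor, fell in the wounded HFSC lineage, with a call lost without library A of that group (adjusted p = 0.0659). The 6 follicle stem cell markers summed to 88.4 and 87.3 CPM in the wounded HFSC lineage, against 1584 and 1315 CPM in HFSC.

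Of 12 EpdSC factors, 9 had a shared new region, with 3, 1 and 0 higher and 1, 4 and 5 lower. With or without a region, 4, 2 and 0 of the list were higher and 3, 5 and 7 lower. Trp63, the p63 factor of stratified epithelia, had 4 regions and 250 and 463 CPM in wounded EpdSC, against 1226 and 1160 CPM in EpdSC. It had 372 and 361 CPM in tumour cells, against 1210 and 1683 CPM. Gata3 fell in the same comparisons (−3.41 ± 0.29 and −3.87 ± 0.35), and Grhl2, with 4 regions, fell in wounded EpdSC (−1.84 ± 0.30). Ovol1, a factor of differentiation, rose in both wound groups (2.09 ± 0.31 and 1.61 ± 0.31).

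Of 11 genes of the epithelial-mesenchymal transition, 3 had a shared new region (Zeb1, Zeb2 and Prrx1), and 0, 3 and 3 of those were higher and none lower, beside 1, 8 and 9 higher of the whole list. Zeb2 had 1.55 and 6.56 CPM in wounded EpdSC, against 0.123 and 0.186 CPM in EpdSC, 13.5 and 13.3 CPM in tumour cells, against 0.646 and 0.253 CPM, and 0.0988 and 0.112 CPM in the wounded HFSC lineage. The 3 genes are also expressed by fibroblasts, whose markers were higher in the same groups, and Zeb1, Zeb2 and Prrx1 all lost the wounded EpdSC call without EpdSC A (adjusted p of 0.164, 0.146 and 0.0800), without EpdSC B (0.126, 0.112 and 0.0657) and without wounded EpdSC B (0.138, 0.136 and 0.0721), as did Zeb1 without wounded EpdSC A (0.0562). The tumour call of Zeb1 was lost without Tbr EpdSC (adjusted p = 0.445). Of 13 glycolysis and hypoxia genes, 3 had a shared new region, with 2, 2 and 3 higher and none lower, beside 12, 12 and 10 higher of the whole list. Hk2, a hexokinase with 3 regions, had 73.0 and 78.6 CPM in wounded EpdSC, against 9.85 and 9.31 CPM in EpdSC, and 109 and 122 CPM in tumour cells, against 40.2 and 44.9 CPM. Pgk1, phosphoglycerate kinase, rose in all 3 comparisons (2.99, 2.95 and 2.88).

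Whole lists, with or without shared new regions, moved by different amounts. Their median log2 fold changes follow for the wounded HFSC lineage, wounded EpdSC and tumour cells, in that order, beside −0.10, −0.04 and 0.11 over all genes. Keratins and alarm proteins (8.64, 10.54 and 4.96), proteases (4.82, 4.54 and 4.70) and glycolysis and hypoxia genes (2.69, 2.64 and 1.68) had the highest medians in the wounded HFSC lineage. Cytokines (2.49, 0.76 and 0.97), actin and migration genes (1.43, 1.10 and 1.69), EGF family genes (0.87, 0.98 and 1.09), TGF-beta genes (0.33, 0.77 and 1.17) and ETS genes (0.20, 0.24 and 1.44) were above all genes in each. Epithelial-mesenchymal transition genes (−0.38, 5.36 and 4.01) were above only where fibroblast markers were, and integrins and laminins (0.43, −0.46 and 1.35), EpdSC factors (0.48, −0.51 and −0.79) and MAPK feedback genes (−2.61, −1.08 and 0.43) differed in sign between comparisons. AP-1 genes (−4.30, −4.23 and −1.14), HFSC factors (−2.52, −1.24 and −1.71), RUNX, TEAD and YAP genes (−1.13, −0.83 and −0.30) and STAT and NF-kB genes (−0.99, −0.54 and −0.29) were below all genes in each.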

How the data were processed

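Chromatin was measured by paired-end ATAC-seq and RNA by single-read sequencing. Per the file headers, the authors called peaks with MACS2 2.1.1.20160309 on 1 pooled, deduplicated mm10 alignment per population, with paired ends as fragments, without a control, at a q-value of 0.05. Bowtie, Picard and STAR are named in the submitters' processing notes, while the sources used here do not state whether cut sites were shifted, nor the gene counter and strand setting. The deposited pileup is a signal, the number of fragments at the summit, not scaled to depth. The deposited fold enrichment is the ratio of pileup to local background, and the deposited −log10 q is adjusted within each list. The deposited RNA tables hold raw counts per gene.

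Peaks were merged at 1 bp of overlap and regions assigned to the nearest coding start, or the nearer gene end where no start was known (RefSeq, GRCm38.p6), within 100 kb. Without a genome, motif letters were counted in RefSeq promoter windows rather than around all summits. The test for counts was that of edgeR 4.0.16 under R 4.3.3 (quasi-likelihood test, TMM scaling, filterByExpr, Benjamini-Hochberg adjustment over all genes), with all 8 libraries of a set in 1 fit. Of 4906 genes with a shared new region, 3981 passed the filter in the wound fit and 4246 in the tumour fit. CPM (the usual depth-scaled count) used TMM-scaled library sizes for RNA and the fragment totals for pileups. Values after ± are standard errors of log2 fold changes. Libraries of a group are not labelled as separate animals, so p-values measure the spread between libraries, which may be technical. Groups at 0 were given a floor of 3 counts over the group. The tests were tested on simulated data. DESeq2 1.42.0, no filter on low counts and each library left out were alternatives.

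Named regions were the 12 with the highest lower-of-both fold. Named genes were the 12 with the most shared new regions, the 12 higher and the 6 lower in all 3 comparisons among genes with 2 or more, and genes of the lists with 3 or more. The regions and lists were chosen with earlier results of these data known. The other counted libraries were not used in a comparison. Results for some genes are not reported here.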

Additional observations from a re-analysis of the deposited data

Results flagged for a closer look

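For 5 named genes the wounded and unwounded libraries did not overlap and moved opposite ways in the HFSC lineage and in EpdSC. The difference between the log2 fold changes, wounded HFSC lineage minus wounded EpdSC, was 2.64 for Bcar3 (2.08 and −0.56), 2.42 for Klf5 (0.75 and −1.67), 1.03 for Nfkb1 (0.45 and −0.58), −10.19 for Podxl (−6.59 and 3.60) and −4.57 for Pthlh (−1.47 and 3.10). None of these differences was tested. Podxl was at 0 in both libraries of the wounded HFSC lineage and under 1 CPM in all wound comparison libraries, so its fitted values depend on the prior count and are no measure of size.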

How the results depend on the processing

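The number of shared new regions was 3678 when each list was held to its 25739 strongest peaks and 17499 when the HFSC list was ignored, against 9735, and lay between 7731 and 11392 under the other settings. The share within 1 kb of a start was 3.12% at a q of 1e-05 in all lists, 2.1% with that q in Wound and Tumor only, 2.99% with equal numbers of peaks and 13.2% without the HFSC list. The AP-1 share of promoter windows lay between 40.3% and 45.1%. With 1 library left out, genes higher ranged from 1987 to 2310 and lower from 2077 to 2754 for the wounded HFSC lineage, from 2974 to 4407 and from 2746 to 4975 in wounded EpdSC, and from 4188 to 4427 and from 3122 to 3686 in tumour cells. Counts moved by over 1.5 times without library A of the wounded HFSC lineage (1987 higher, 2077 lower), without its library B (2098 lower), without HFSC A (2074 higher), without EpdSC B (2974 higher) and without EpdSC A (2746 lower). The excess of genes higher in wounded EpdSC over all genes turned, at any distance, to −0.101 percentage points among genes with 1 or more shared new regions and −4.52 among those with 5 or more, and by nearest gene span to −0.935 and −1.79. The cause was not tested. The sign of single genes turned when 1 library was left out, in log2 fold change over all such settings: Itgb1 in wounded EpdSC ranged from −0.78 (without wounded EpdSC B) to 0.57. In tumour cells Foxp1 ranged from −0.77 (without Tbr EpdSC) to 0.92 and Tcf7l1 from −1.57 (without Tbr EpdSC) to 2.26. Without Tbr HFSC, Klf5 stood at −0.70, Ltbp2 at 3.40, Sox9 at 1.07 and Tbx1 at 0.96, at the other end of ranges reaching 0.82, −4.68, −1.68 and −5.80 without Tbr EpdSC. Of 3788 alternatives over 149 genes, 3485 kept the call, and the direction too where the gene was called. They include genes that passed in neither fit, whose sign could turn. The letters A and B did not pair the libraries: deviations of same-letter libraries correlated at −0.177 in the HFSC groups and 0.0436 in the EpdSC groups. With the letters as a replicate block, 2995 genes were higher and 3456 lower in the wounded HFSC lineage. In wounded EpdSC the block gave 4300 and 4187. A crossed pairing in the HFSC groups gave 3546 and 3916. Motif windows around summits away from promoters were not run, since no genome was given. Low counts limit the genes at or near 0, where fitted folds depend on the prior count.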

Other observations

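Of 1005 miRNA hairpins, 36 lay within 3 kb of a shared new region. Mir199a-2 had the region with the highest folds among them (12.6 in Wound and 14.4 in Tumor, 1351 bp away). Mir21a, a miRNA of wounds and carcinomas, had one 2640 bp away with folds of 3.17 and 2.71, Mir203, a miRNA of differentiating epidermis, had one 2020 bp away, and Mir29a and Mir29b-1 shared one 460 and 823 bp away. No miRNA expression was analysed here.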
